A study of Mus musculus with 6 samples.

Results

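The collagen genes of mouse, those with a symbol of the form Col, number, a, number, were described in primary brain cultures exposed to the active form of vitamin D. A row of the array table was taken when its annotation gave exactly 1 such symbol, which left 44 collagen genes of the 19938 genes measured. These 44 genes came from 46 rows, because Col6a5 and Col6a6 had several, and the row with the highest mean was used. They were sorted into 11 fibrillar chains, 6 basement membrane chains, 6 beaded filament chains and 21 others. The rule used names and levels, not the response to treatment, but it was chosen with earlier results of these data known.

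The treated group was 3 cultures given 1,25-dihydroxyvitamin D3 (1,25D), the hormone that activates the vitamin D receptor, at 10 nM in serum-free medium without growth factors. The control group was 3 cultures given vehicle in the same medium. All 6 were primary cultures from the brains of OF1 mouse embryos at embryonic day 17, differentiated in fetal calf serum into a mixture of neurons and glia, and each gave total RNA for 1 Affymetrix array. The labels call the arrays of a group biological replicates; how long they were treated, how many brains made a culture and whether litters were shared are not stated in the labels, so p-values measure only the spread between these samples. Arrays with equal replicate numbers resembled each other, as a property of the data and not of the labels, and the 1,25D minus control difference is therefore also given by number.

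Collagens are secreted proteins in which 3 chains wind into a triple helix. Fibrillar collagens such as types I, II, III, V and XI assemble into the fibrils of connective tissue, type IV collagens form the sheet of basement membranes, and type VI collagens form beaded filaments around cells. In the brain, collagen lies chiefly in the basement membranes of vessels and in the meninges, so a serum-differentiated brain culture can hold it through vascular, meningeal and glial cells. In bone-forming cells and fibroblasts, type I collagen is a known subject of vitamin D research.

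Markers of neural, vascular and connective tissue cells were read first. Astrocyte genes were bright, with a mean log2 intensity over 9 markers of 11.25, 11.55 and 11.04 on the 1,25D arrays numbered 1 to 3 and 11.52, 11.52 and 11.12 on the control arrays. The 9 neuronal markers had group means between 7.23 and 10.65 in 1,25D and between 7.16 and 10.94 in control cultures, with Map2 the brightest in both and Tubb3 at 7.36 in 1,25D and 7.41 in control cultures. Of the 9 mural markers, of pericytes and smooth muscle, the actin gene Acta2 was the brightest, at 12.31 in 1,25D and 12.51 in control cultures. Rgs5 was the dimmest, at 6.01 in 1,25D and 5.99 in control cultures. Myh11, Kcnj8, Abcc9 and Des also lay below the median gene of every array. The 8 endothelial markers had means between 5.75 and 9.99 in 1,25D and between 5.65 and 10.16 in control cultures. Kdr was the brightest of those 8, and the other 7, Pecam1 among them (6.85 in 1,25D and 6.88 in control), lay below the median gene of every array (7.91 to 7.98). Of the fibroblast and meningeal markers, Ogn averaged 11.73 in 1,25D cultures and 11.80 in control cultures, but Dcn (6.81 in 1,25D and 6.74 in control) and Lum (4.73 in 1,25D and 4.68 in control) were dim. None of the 61 cell type markers measured passed the test of 1,25D against control given below, which only 0.0251% of all genes passed.

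The collagen signals of the control cultures spanned mean log2 intensities from 6.71 to 10.77, with a median of 8.12 against 7.95 for all genes. An array signal depends on the probes as well as on the transcript, so this order is one of signals and not of transcript amounts. The deposited values carry no detection call, and the lowest of them cannot be told from background. Col8a1, a short-chain network collagen of vessel walls and of the corneal endothelium's basement membrane, stood first and above 93.4% of all genes. Col1a1, the major chain of type I collagen, was the brightest fibrillar gene and stood above 75.8% of all genes. Col10a1, the collagen of hypertrophic cartilage, stood last of the 44 and above 23.5% of all genes.

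Between these ends the order was crowded. After Col8a1 came Col1a1 at a control mean of 9.33, with Col12a1, a fibril-associated collagen, at 9.33 and Col11a1, a minor fibrillar chain of cartilage-type fibrils, at 9.23. These 3 did not differ beyond their spread, since the control SDs were 0.28, 0.25 and 0.20. Col26a1, a small collagen first described in testis and ovary, followed at 9.07 and the fibril-associated Col9a3 at 9.02. The other 38 genes had control means of 8.54 or lower. Of the 37 gaps between neighbours in that stretch, 4 exceeded the median control SD of the collagens, 0.124, and the widest was 0.228. Col3a1, which accompanies type I collagen in soft tissue, was only the 30th of 44 at 7.90.

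**Figure D1:**
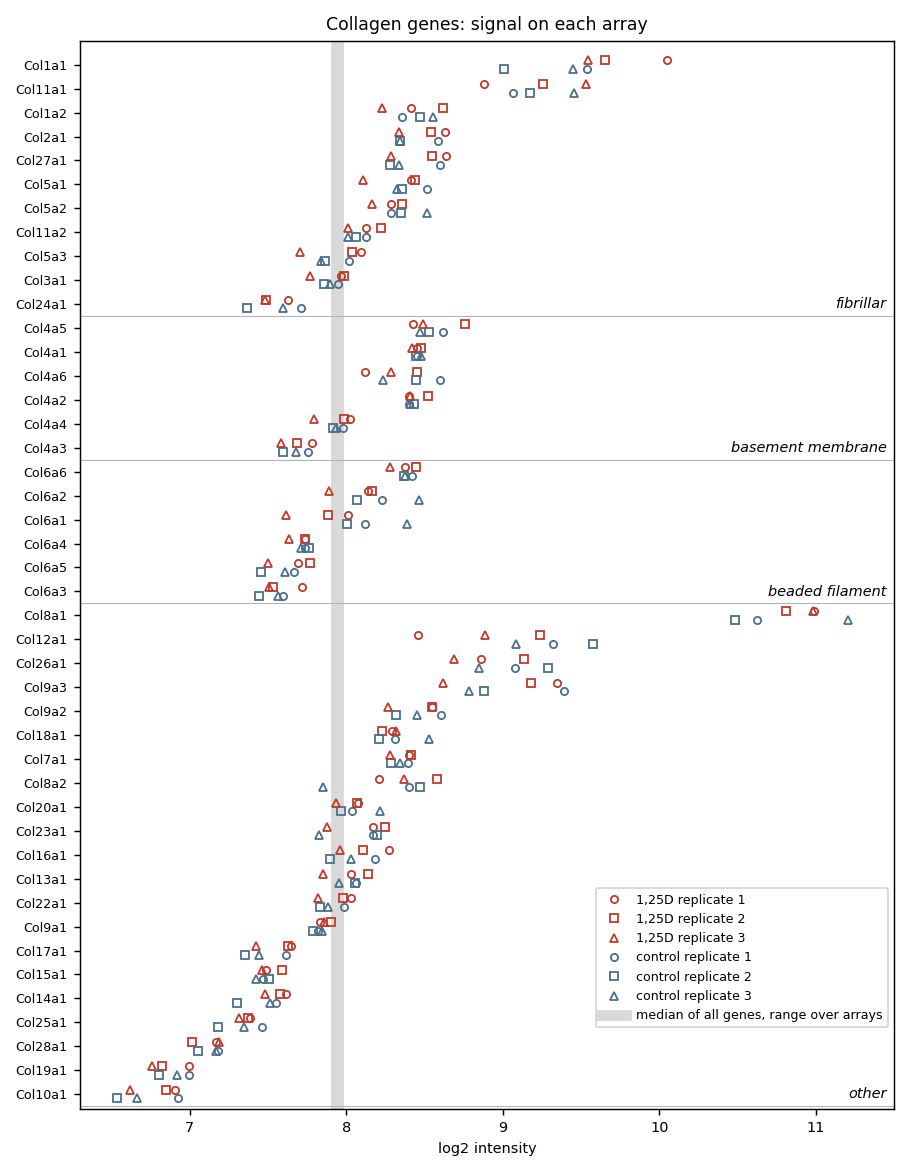
Log2 array intensity (horizontal axis) of the 44 collagen genes, grouped by class, with 1 point per array, red for 1,25D and blue for control cultures, shaped by replicate number, and a grey band at the medians of all genes. The points of both groups overlap for every gene except Col1a1, whose 1,25D arrays all lie above its control arrays.

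The stretch of genome just before the start of transcription is shown for 3 collagens that stand for different outcomes below: the brightest (Col8a1), the partner of Col1a1 in type I collagen (Col1a2) and the beaded filament gene with the largest difference (Col6a1). The sequences are RefSeq windows on GRCm38.p6, 250 bases up to the start, read 5' to 3' on the gene's strand. Capitals mark CCAAT, bound by NF-Y, and GGGCGG, the GC box bound by Sp1 family factors, in either orientation. The windows are chr16:57754738-57754987 on the minus strand for Col8a1, chr6:4505368-4505617 on the plus strand for Col1a2 and chr10:76726045-76726294 on the minus strand for Col6a1.
Col8a1: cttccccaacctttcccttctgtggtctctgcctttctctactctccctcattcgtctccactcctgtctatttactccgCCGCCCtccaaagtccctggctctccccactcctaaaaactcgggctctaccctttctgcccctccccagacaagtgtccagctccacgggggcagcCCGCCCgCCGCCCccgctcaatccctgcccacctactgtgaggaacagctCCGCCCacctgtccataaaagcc
Col1a2: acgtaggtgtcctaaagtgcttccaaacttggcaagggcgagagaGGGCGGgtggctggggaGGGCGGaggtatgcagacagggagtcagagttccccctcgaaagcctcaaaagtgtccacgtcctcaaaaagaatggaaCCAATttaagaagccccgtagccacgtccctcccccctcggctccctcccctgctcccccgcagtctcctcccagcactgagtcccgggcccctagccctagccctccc
Col6a1: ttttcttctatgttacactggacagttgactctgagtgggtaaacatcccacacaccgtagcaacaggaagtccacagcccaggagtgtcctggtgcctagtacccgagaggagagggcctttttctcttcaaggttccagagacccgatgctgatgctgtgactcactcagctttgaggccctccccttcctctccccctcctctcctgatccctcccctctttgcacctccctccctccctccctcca

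The Col8a1 window held 4 GGGCGG motifs and no CCAAT, the Col1a2 window held 1 CCAAT and 2 GGGCGG, and the Col6a1 window held neither. Windows were at hand for 35 of the 44 collagen genes, 38 windows in all. Col1a1 and Col12a1 were among the genes without a window and were not searched. On either strand GGGCGG stood in 22 of 38 collagen windows (57.9%), against 32.7% of all 32851 windows, and CCAAT in 13 of 38 (34.2%), against 33.8%. TATAAA, the TATA box, stood in 5 of 38 (13.2%), against 12.4%. A direct repeat spaced by 3 bases is the arrangement that the vitamin D receptor and its partner bind. It was searched as GNTCA, 4 free bases and GNTCA again. This pattern matched 0 of 38, against 0.548% of all windows, a share at which 38 windows would mostly hold none. A match is a run of letters and not a bound site, and no match says only that these letters are not in this window.

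In 1,25D cultures no collagen gene passed the test of 1,25D against control (limma, Benjamini-Hochberg adjusted p under 0.05 over all genes). Over all genes 5 passed, or 0.0251%, all of them higher. With the replicate number as a block 18 passed, or 0.0903%, and again no collagen was among them. At an unadjusted p under 0.05, collagens numbered 0 without the block, against 1.48% of all genes, and 2 of 44 (Col1a1 and Col12a1) with it, against 5.78% of all genes. The means of 24 collagens were higher and those of 20 were lower in 1,25D, and the median log2 difference was 0.01, the same as over all genes. All 44 intervals of 95% lay within 1 log2 unit of 0, and 36 of 44 lay within 0.5, compared with 79.5% of all genes within 0.5. A difference was within 0.1 in 35 of 44 collagens, compared with 66.0% of all genes, and exceeded 0.2 in 3 of 44, compared with 9.29%.

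Of the fibrillar chains, 6 had a higher mean and 5 a lower one in 1,25D, with a median difference of 0.01. Col1a1 was the collagen with the largest positive difference. Its log2 intensities were 10.05, 9.65 and 9.54 on the 1,25D arrays, against 9.54, 9.01 and 9.45 on the control arrays. It was the only 1 of 44 collagens whose groups did not overlap, a property of 4.15% of all genes (2.63% with 1,25D higher and 1.52% with 1,25D lower), although the lowest 1,25D array lay only just above the highest control array. The means were 9.75 ± 0.27 in 1,25D and 9.33 ± 0.28 in control cultures (SD, n = 3 each), a difference of 0.42 with a standard error of 0.18, a 1.34-fold higher signal in 1,25D. By limma its unadjusted p was 0.053, its adjusted p was 1.00, and its adjusted p with the block was 0.67. The difference by replicate number was 0.51, 0.64 and 0.10, so the third pair carried little of it.

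The second chain of type I collagen did not show the same difference. Col1a2, which joins Col1a1 in the same triple helix, measured 8.42, 8.62 and 8.23 in 1,25D cultures, against 8.36, 8.47 and 8.55 in control cultures. The groups overlapped fully, and the difference was -0.04 (95% interval -0.33 to 0.25). By number the Col1a2 difference was 0.06, 0.15 and -0.33. The pairs numbered 1 and 2 were thus higher in 1,25D, as for Col1a1, and the pair numbered 3 was lower. Within an array the Col1a1 signal exceeded the Col1a2 signal by 1.63, 1.03 and 1.32 log2 units in 1,25D, against 1.18, 0.53 and 0.89 in controls. The size of this gap reflects the probes too, so only its difference between groups is read. It was wider in 1,25D by 0.45, 0.50 and 0.42 for the 3 replicate numbers, but the 2 groups of gaps overlapped. A two-sided exact permutation test gave p = 0.2, or 0.6 after adjustment over the 9 chain pairs compared. An exact permutation test over the replicate numbers as pairs, added after the data were seen, gave p = 0.25 (0.844 adjusted), the smallest that 3 pairs can give. With this number of arrays neither form can reach 0.05.

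Among the other fibrillar genes, Col11a1 measured 8.88, 9.26 and 9.53 in 1,25D cultures, against 9.06, 9.17 and 9.45 in control cultures. Its differences by number had mixed signs, and the mean difference was -0.01 (95% interval -0.43 to 0.41). Col5a2, a chain of the type V collagen that nucleates type I fibrils, measured 8.28, 8.36 and 8.17 in 1,25D, against 8.28, 8.35 and 8.52 in controls. Its difference of -0.11 came from the pair numbered 3, at -0.35, while the pairs numbered 1 and 2 differed by 0.00 and 0.01. Col3a1, adjacent to Col5a2 on chromosome 1, differed by 0.01 (95% interval -0.22 to 0.24). Col2a1 (0.08), Col27a1 (0.08), Col5a1 (-0.08), Col11a2 (0.05), Col5a3 (0.04) and Col24a1 (-0.03) were all within 0.1 of 0.

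The basement membrane chains had the narrowest range of differences of the 4 classes, -0.14 to 0.03, with 3 means higher and 3 lower. Col4a1, which with Col4a2 makes the type IV trimer found in nearly all basement membranes, measured 8.45, 8.48 and 8.42 in 1,25D cultures, against 8.45, 8.45 and 8.48 in control cultures. The arrays of both groups lay within the same narrow span, and the difference was -0.01 (95% interval -0.21 to 0.19). Col4a2, its neighbour on chromosome 8, differed by 0.03 (95% interval -0.18 to 0.24). For both genes the 2 arrays numbered 1 held identical values, as they did for Col5a2, Col11a2 and Col23a1 and for 1094 of the 19938 genes, which fixes that pair's difference at 0. These ties stand in the values as deposited and were rare in the other pairs, with 7 rows in number 2 and 11 in number 3, while number 1 had 1514.

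Col4a5 and Col4a6, X-linked neighbours that make the chains of specialised basement membranes in kidney and smooth muscle, were the first and the third genes of the class by level. Col4a5 measured 8.42, 8.76 and 8.49 in 1,25D cultures, against 8.62, 8.53 and 8.47 in control cultures. Its groups overlapped, with a difference of 0.02 (95% interval -0.25 to 0.29). Col4a6 measured 8.12, 8.45 and 8.29 in 1,25D, against 8.60, 8.45 and 8.24 in controls. Its difference of -0.14 (95% interval -0.45 to 0.17) came from the pair numbered 1, at -0.48, with 0.01 and 0.05 in the others. Col4a3 (0.0048) and Col4a4 (-0.0079), adjacent genes of the kidney's glomerular collagen, hardly differed.

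Of the beaded filament chains, 2 had a higher mean and 4 a lower one in 1,25D, with a median difference of -0.03. Col6a1, a chain of the type VI trimer that microfibrils around cells are built from, had the smallest unadjusted p of the 44. It measured 8.01, 7.88 and 7.61 on the 1,25D arrays, against 8.12, 8.00 and 8.39 on the control arrays. The groups overlapped by the first 1,25D array and the second control array, whose values were almost equal. The means were 7.84 ± 0.20 in 1,25D and 8.17 ± 0.20 in control cultures (SD, n = 3 each), a difference of -0.33 with a standard error of 0.15 (limma, unadjusted p = 0.052, adjusted p = 1.00). By number the difference was -0.11, -0.12 and -0.78, so the third pair was several times the others. Without that pair it was -0.11.

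Col6a2, next to Col6a1 on chromosome 10 with 2 genes between, had the same uneven make-up. It measured 8.14, 8.16 and 7.89 in 1,25D cultures, against 8.23, 8.07 and 8.46 in control cultures. By number the difference was -0.09, 0.09 and -0.57, and the mean difference was -0.19 (95% interval -0.50 to 0.12). Col6a3, the third chain of the classical trimer, did not share it, with a difference of 0.05 (95% interval -0.19 to 0.29). Within an array the Col6a1 signal lay below that of Col6a2 by more in 1,25D, at -0.23 on average, than in controls, at -0.08, with no overlap between groups, and the exact permutation p of 0.1 is the smallest that 3 arrays against 3 can give (0.6 after adjustment). Col6a4, Col6a5 and Col6a6, which lie side by side on chromosome 9 and encode chains that can take the place of Col6a3, differed by -0.04, 0.08 and -0.02. Col6a6 was the brightest of the class, at 8.38, 8.44 and 8.28 in 1,25D, against 8.42, 8.37 and 8.38 in controls. The second row of Col6a5 differed by -0.10, opposite in sign to the row used, and the second row of Col6a6 by 0.04, so the sign of neither gene was settled by its rows.

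Among the 21 other collagens, 13 means were higher and 8 lower, with a median difference of 0.03. Col12a1, a fibril-associated collagen that links fibrils to the matrix around them, had the most negative difference of all 44. It measured 8.46, 9.23 and 8.89 in 1,25D cultures, against 9.32, 9.58 and 9.08 in control cultures. The groups overlapped, because the second 1,25D array lay above the third control array, yet every pair of equal number was lower in 1,25D, by -0.86, -0.34 and -0.20. The means were 8.86 ± 0.39 in 1,25D and 9.33 ± 0.25 in controls (SD, n = 3 each). The difference of -0.47 had a standard error of 0.21, a signal 1.38-fold lower in 1,25D (limma, unadjusted p = 0.058, adjusted p = 1.00, adjusted p with the block = 0.68). Col14a1, a close relative in structure and also fibril-associated, measured 7.61, 7.57 and 7.48 in 1,25D, against 7.55, 7.31 and 7.51 in controls, a difference of 0.10 (95% interval -0.14 to 0.34).

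The brightest collagen gene, Col8a1, measured 10.99, 10.81 and 10.98 in 1,25D cultures, against 10.62, 10.48 and 11.20 in control cultures. The control arrays spread over a wider range that enclosed the 1,25D arrays. The means were 10.93 ± 0.10 in 1,25D and 10.77 ± 0.38 in controls (SD, n = 3 each), and the difference was 0.16 (95% interval -0.27 to 0.59), with 0.37, 0.33 and -0.22 by number. Col8a2, its partner chain, measured 8.21, 8.58 and 8.37 in 1,25D, against 8.40, 8.47 and 7.85 in controls. Its mean difference of 0.14 (95% interval -0.28 to 0.57) had the opposite make-up, with -0.19, 0.11 and 0.52 by number, and without the third control array it was -0.05.

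Col26a1 measured 8.86, 9.14 and 8.69 in 1,25D cultures, against 9.07, 9.29 and 8.85 in control cultures. The groups overlapped, but the pairs were alike, at -0.22, -0.16 and -0.16, around a mean difference of -0.18 (95% interval -0.54 to 0.19, without the block). The standard error of this difference was 0.16 without the block and 0.07 with it (limma, adjusted p with the block = 0.86). Col17a1, a membrane-spanning collagen of epithelial hemidesmosomes, measured 7.65, 7.63 and 7.43 in 1,25D, against 7.62, 7.35 and 7.44 in controls, a difference of 0.10 (95% interval -0.17 to 0.36). The remaining genes of this class differed by between -0.07 for Col18a1, the vessel-wall collagen that yields endostatin, and 0.09 for Col10a1. Col25a1, a membrane-spanning collagen of neurons also known from amyloid plaques, differed by 0.03 (95% interval -0.22 to 0.27).

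**Figure D2:**
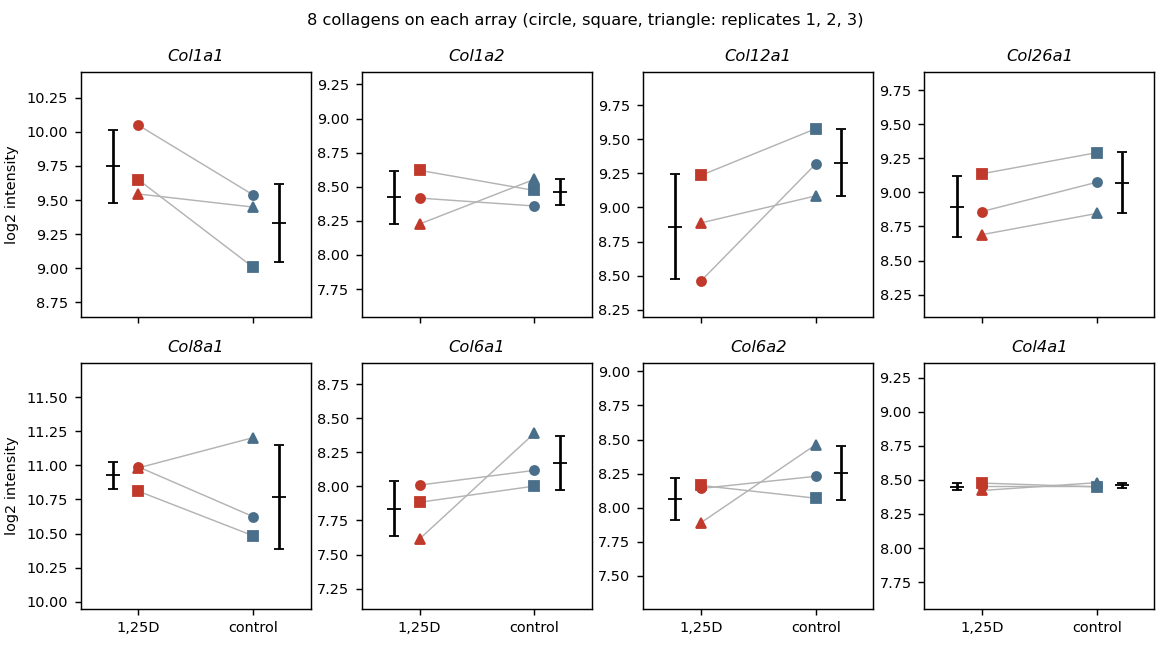
Log2 array intensity (vertical axis, with its own range but the same length of scale in each panel) of 8 collagen genes named above, with lines that join the 1,25D and control arrays of equal replicate number (circle, square and triangle for 1, 2 and 3) and bars for the group mean and SD. All 3 lines of Col1a1 run higher in 1,25D and those of Col12a1, Col26a1 and Col6a1 lower, with the Col6a1 line of replicate 3 the steepest of that gene.

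Few collagens differed the same way in all 3 replicate numbers. Col1a1, Col9a1 and Col15a1 were higher and Col12a1, Col26a1 and Col6a1 lower in each, in all 6 of 44, while 25.8% of all genes had the same sign throughout (14.8% higher and 11% lower). A gene tied in a pair could not count as the same sign. Ties in number 1 held 5 of the 44 collagens and 1094 of the 19938 genes. The sizes of Col9a1 (0.05) and Col15a1 (0.05), a fibril-associated collagen and a basement-membrane-zone collagen, were small.

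The sign of most collagen differences turned between the replicate numbers. In the pair numbered 2, 39 of 44 collagens (88.6%) were higher in 1,25D, against 57.2% of all genes. In the pair numbered 3 only 9 of 44 (20.5%) were higher, against 47.9% of all genes, and in the pair numbered 1 the count was 20 of 44 (45.5%), against 49.1%. The median collagen difference was 0.00, 0.11 and -0.08 for numbers 1, 2 and 3, compared with 0.00, 0.03 and -0.01 over all genes. These shifts differ in sign, so they largely cancel in the mean over pairs. Genes of similar level shifted by less in numbers 2 and 3. Over the 6249 genes with a mean log2 intensity between 7 and 8.5, the medians were 0.00, 0.05 and -0.01, and for the 35 collagens in that band they were 0.00, 0.10 and -0.07. Of the genes in that band 62.0% were higher in number 2, against 91.4% of its collagens. Above 8.5 the medians were -0.02, -0.02 and 0.003 over 7848 genes and -0.18, 0.23 and -0.16 for 7 collagens. The part of signal level in these shifts was not tested.

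By class the counts were uneven. In the pair numbered 2, 11 of 11 fibrillar, 6 of 6 basement membrane, 4 of 6 beaded filament and 18 of 21 other collagens were higher in 1,25D. In the pair numbered 3 the counts were 2 of 11, 2 of 6, 0 of 6 and 5 of 21. The third 1,25D array was the lowest of the 6 arrays for 22 of 44 collagens, which held for 17.0% of all genes, and the second 1,25D array was the highest for 13 of 44, against 14.4% of all genes. The second control array was the lowest for 13 of 44, against 24.6%. With quantile normalization the number 2 and 3 counts were 38 and 9 of 44, against 56.8% and 49.1% of all genes. With each array centred on its median they were 34 and 9, against 50.4% and 47.5%, so both shifts kept their sign. For number 1 the count moved with the scaling, to 14 and 26 of 44, and the share over all genes moved too, to 43.7% and 56.5%. As deposited, 5 of 44 collagens were tied in number 1, and rescaling gave these a sign.

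Markers of matrix-producing cells moved with the replicate numbers in part. Of the 8 fibroblast and meningeal markers, 6, 6 and 1 were higher in 1,25D in the pairs numbered 1, 2 and 3. The shares over all genes were 49.1%, 57.2% and 47.9%. The median differences of the 8 markers were 0.07, 0.09 and -0.07. Ogn, by far the brightest of them, went the other way, at -0.19, -0.18 and 0.14, and was the 1 marker higher in number 3. The mean level of the 8 markers per array was between 7.36 and 7.38 in 1,25D and between 7.31 and 7.44 in control cultures. The 9 mural cell markers, of pericytes and smooth muscle, had median differences of 0.00, 0.03 and -0.06 by number, and mean levels of 8.49 to 8.57 in 1,25D and 8.48 to 8.61 in controls. These medians cover members that lay apart in both directions, with 6 of 9 of the same sign in all 3 numbers, against 25.8% of all genes. Pdgfrb, a pericyte receptor, differed by 0.47, 0.39 and 0.60, and Cnn1, a contractile protein gene of smooth muscle, by -0.36, -0.60 and -0.81. Tagln, another contractile gene, differed by -0.13, -0.26 and -0.30 with no overlap between groups. None of these 3, named after their values were seen, passed the test (limma, adjusted p = 1.00 each, and 0.23, 0.25 and 0.78 for Pdgfrb, Cnn1 and Tagln with the block). The part of these cells in the collagen values was not tested, and in such bulk cultures fewer cells of a type and less RNA per cell cannot be told apart.

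**Figure D3:**
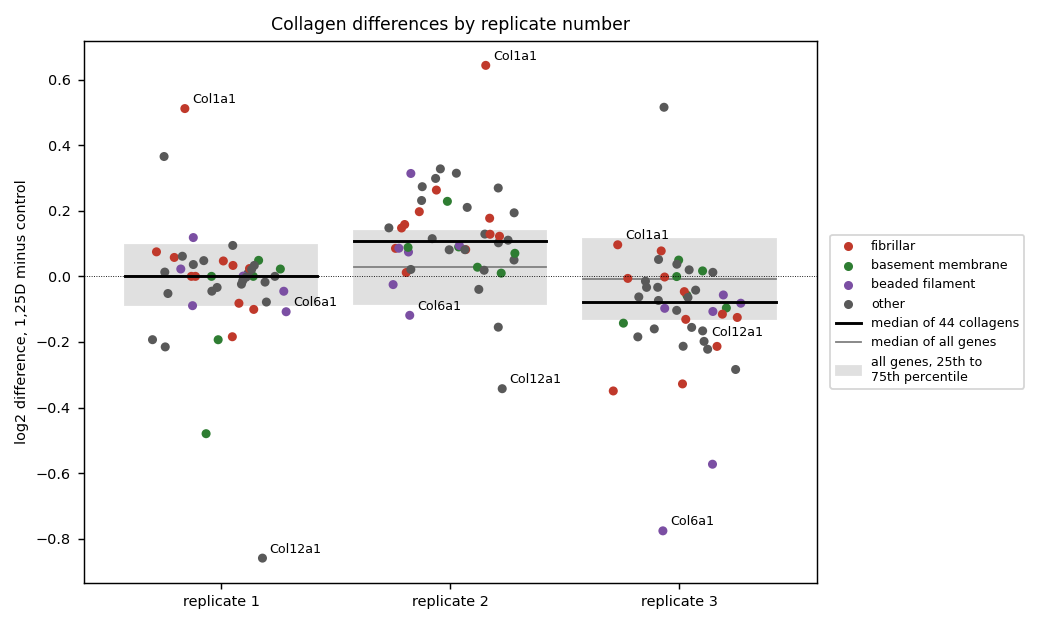
Log2 difference of 1,25D minus control (vertical axis) for the 44 collagen genes in each replicate number, 1 point per gene by class, with medians of the collagens and of all genes as lines and the 25th to 75th percentile of all genes as a grey band. The collagens sit mostly above 0 in number 2 (39 of 44 higher) and mostly below 0 in number 3 (9 of 44 higher).

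Of the 9 pairs of chains that share a trimer or a type, the remaining 7 gave an exact permutation p of 0.2 or more. The gap between Col4a5 and Col4a6 was 0.16 wider in 1,25D and that between Col4a1 and Col4a2 was 0.04 narrower (exact permutation p = 0.2 and 0.3, adjusted 0.6 and 0.675). For Col8a1 and Col8a2 the gap differed by 0.01 on average but by 0.56, 0.22 and -0.74 by number. The gaps of the other 4 pairs differed by -0.06 to 0.05. The pairs were listed after the values had been seen.

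Genes that make, process and bind collagen were read beside the collagens, from a list of 44 of which 40 were measured. Of these 40, 0 passed the test without or with the block (limma), against 0.0251% and 0.0903% of all genes. The means of 22 were higher and those of 18 lower, and the median difference was 0.03. At an unadjusted p under 0.05 (limma), 1 gene of 40 stood out without the block and 5 with it, against 1.48% and 5.78% of all genes. Those 5, P4ha1, Itga2, Tll1, Plod1 and Pcolce2, all had a higher mean in 1,25D, and the lowest adjusted p with the block was 0.51. The groups did not overlap for 2 of 40, P4ha1 and Plod1, compared with 4.15% of all genes.

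This count of 2 in 40 is near the share over all genes. Both genes belong to hydroxylation and glycosylation, a subgroup that holds 15 of the 40. P4ha1, the catalytic subunit of prolyl 4-hydroxylase, whose product holds the triple helix together, measured 11.12, 11.16 and 11.39 in 1,25D cultures, against 10.71, 10.88 and 11.09 in control cultures. Each 1,25D array lay above every control array, the lowest by a narrow margin, and the difference was 0.32 with a standard error of 0.13, or 1.25-fold (limma, unadjusted p = 0.039, adjusted p = 1.00). Plod1, a lysyl hydroxylase that prepares collagen for crosslinks, measured 10.68, 10.77 and 10.59 in 1,25D, against 10.50, 10.56 and 10.14 in controls, a difference of 0.28 (95% interval -0.03 to 0.59). The class was not uniform, since the 15 genes of hydroxylation and glycosylation had a median difference of -0.02 with 6 means higher and 9 lower.

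Among the genes of folding and export, the collagen chaperone Serpinh1 measured 10.23, 10.34 and 10.30 in 1,25D cultures, against 10.29, 10.28 and 10.08 in control cultures. Its groups overlapped, with a difference of 0.07 (95% interval -0.16 to 0.31). Tmem38b, an ion channel of the endoplasmic reticulum whose loss impairs collagen export in bone, measured 8.79, 9.09 and 8.91 in 1,25D, against 8.80, 8.92 and 8.72 in controls, a difference of 0.12. The median over the 4 genes of that subgroup was 0.05.

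Propeptide removal turns procollagen into fibril-forming collagen. Pcolce2, an enhancer of the procollagen C-proteinase, had the largest difference of the list at 0.66, but its interval ran from -0.33 to 1.65. Its values of 9.37, 8.40 and 7.46 in 1,25D cultures, against 8.06, 7.73 and 7.45 in control cultures, overlapped, and the pairs differed by 1.31, 0.67 and 0.01. The proteinase gene Tll1 measured 7.16, 6.78 and 7.23 in 1,25D, against 6.83, 6.65 and 6.89 in controls, a difference of 0.27, and the main proteinase gene Bmp1 differed by -0.02.

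Of the crosslinking enzymes, Loxl1 measured 8.84, 8.91 and 8.45 in 1,25D cultures, against 8.81, 8.81 and 9.14 in control cultures, and differed by -0.19. Loxl4 measured 7.25, 7.44 and 7.07 in 1,25D, against 7.22, 7.004 and 7.12 in controls, and differed by 0.14. Lox, named here after its values were seen, measured 9.33, 9.12 and 8.97 in 1,25D, against 8.94, 8.99 and 10.94 in controls. The third control array alone was high, so the difference of -0.49 had an interval from -1.62 to 0.65 and was 0.38, 0.13 and -1.97 by number. That array was the highest for 7 of 44 collagens (15.9%), Col6a1, Col6a2 and Col5a2 among them, against 22.4% of all genes.

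The median over the 10 receptor and uptake genes was 0.04. Itga2, the alpha chain of a collagen-binding integrin, measured 10.41, 10.64 and 9.61 in 1,25D cultures, against 9.79, 10.09 and 9.50 in control cultures, with overlap. The difference was 0.43 (95% interval -0.20 to 1.05), higher in each pair, at 0.62, 0.55 and 0.10. Adgrg1, an adhesion receptor that binds type III collagen in the developing cortex, measured 12.12, 12.54 and 12.09 in 1,25D, against 12.06, 12.31 and 11.92 in controls, a difference of 0.16. Its groups overlapped, although each pair was higher in 1,25D.

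**Figure D4:**
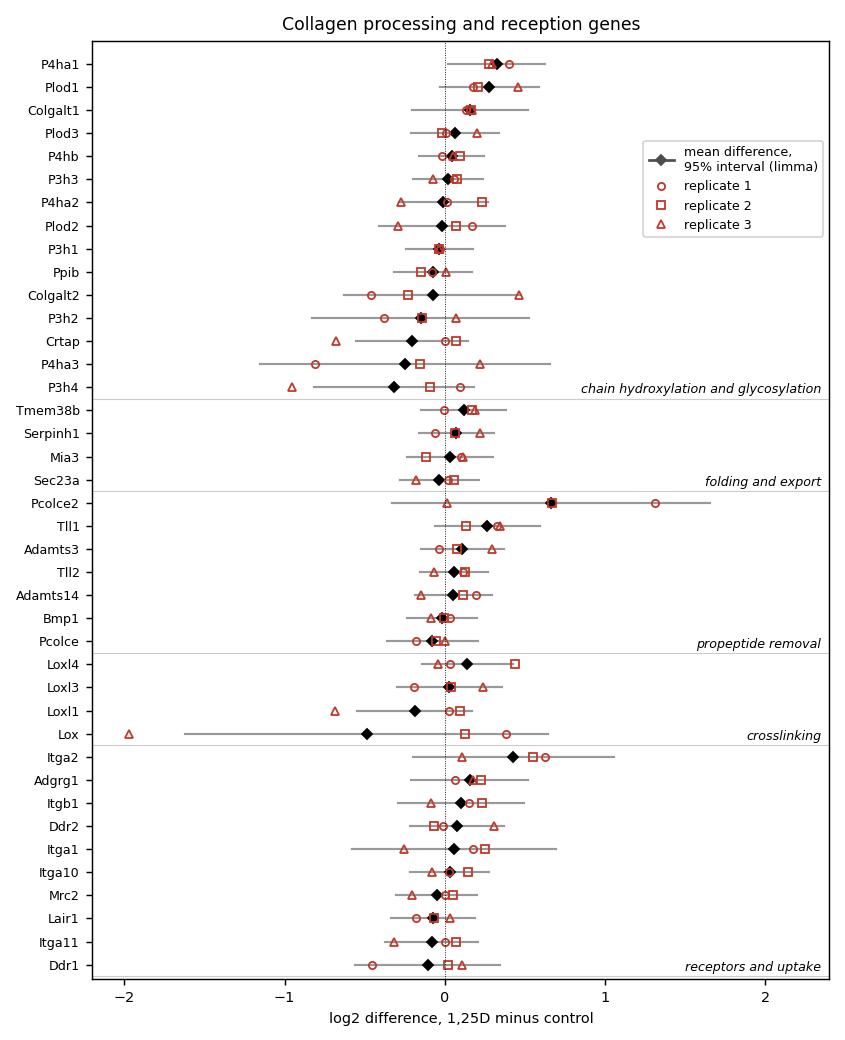
Log2 difference of 1,25D minus control (horizontal axis) for the 40 measured genes of collagen synthesis and reception in 5 subgroups, with 95% intervals as bars and 1 small point per replicate number. Only the interval of P4ha1 lies wholly above 0, and Pcolce2 (0.66) and Lox (-0.49) have the widest intervals and the farthest means.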

How the data were processed

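The deposited intensity values of 6 arrays are on a linear scale. The submitters' processing notes name RMA and Affymetrix Expression Console, without versions or filters. RMA gives no detection call and compresses differences of dim genes. The number of arrays limits the precision. No column belonged to another sample.

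Of 35556 rows, the platform annotation gave 21789 with 1 symbol, 1621 with several and 12146 not named here, which left 19938 genes. For 999 genes with several rows the row of highest mean was used. The log2 of each intensity was fitted by group in R 4.3.3 (limma 3.58.1: lmFit and eBayes without a trend), with no filter and Benjamini-Hochberg adjustment over all genes at 0.05. Intervals are 95%. The script was tested on simulated data. Pairs of chains were compared with two-sided exact permutation tests, whose smallest p is 0.1.

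Deviations from the group means correlated at 0.51, 0.65 and 0.46 between arrays numbered 1, 2 and 3 alike, and at -0.51 to -0.012 otherwise. The deviations of a group sum to 0, so the negative values follow in part from the positive ones. On this property of the data the numbers were treated as pairs, and a fit blocked on the replicate number stands beside the other fit where it changed a result.

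Members and lists were chosen with earlier results of these data known. Values in every array are given for the 3 brightest collagens of each class, the 5 smallest p among higher and among lower collagens, and the 2 smallest p in each of 5 synthesis subgroups. Of the listed synthesis genes 4, and of 62 markers 1, are not analysed here. Gene order and promoter windows come from RefSeq, GRCm38.p6.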

Additional observations from a re-analysis of the deposited data

How the results depend on the processing

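The count of called collagens was 0 without the block, with the replicate block and in every other setting run (22 alternatives), and so was the count of called synthesis and reception genes. The block moved the count over all genes from 5 to 18 and changed no other call. The alternatives were other normalizations and variance models, no dim genes, other row rules, array weights, and each array left out in turn; the block with quantile normalization, the block with 1 pair left out and the fit without tied genes were chosen after seeing the data. The lowest adjusted p of a collagen in any setting was 0.0905, and of a synthesis gene 0.081, both with the block and without pair 3. The median collagen difference ranged from -0.04 to 0.06 and was above 0 in 19 settings and below 0 in 4, so its sign is not settled; leaving out 1 array gave -0.02 to 0.06. Col1a1 ranged from 0.25 to 0.58, Col12a1 from -0.65 to -0.27, Col6a1 from -0.45 to -0.11, Col26a1 from -0.30 to -0.06 and Col8a1 from 0.01 to 0.37, with no change of sign. Col8a2 turned to -0.050 without control replicate 3, in a range up to 0.26 with 1 array left out, and to -0.041 with the block and without pair 3. In that last setting Col6a2 turned to 0.0022 and Col5a2 to 0.0059. Col1a2 ranged from -0.14 to 0.10 and was above 0 in 4 settings. Col4a5 ranged from -0.09 to 0.12 and was below 0 in 3 settings. Col4a6 ranged from -0.23 to 0.03 and was above 0 in 1 setting. Col4a1 (-0.03 to 0.01) was above 0 in 2 settings and Col6a6 (-0.07 to 0.02) in 3. Col11a1 moved to 0.16 without 1,25D replicate 1 and to -0.16 without 1,25D replicate 3. The cause was not tested. The intervals printed are per gene and not adjusted over all genes, so an interval that excludes 0, as for P4ha1, need not pass the test. With 3 arrays a group, true differences as large as these intervals reach could have gone uncalled. No detection call separates dim collagens from background.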
